A study of Homo sapiens with 12 samples.

Results

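The serine and folate one-carbon enzymes are 9 genes, taken by name as enzymes of these pathways with earlier results of the same data known: PHGDH, PSAT1, PSPH, SHMT1, SHMT2, MTHFD1, MTHFD2, TYMS and MTAP. Each was found once among the 58302 genes of the deposited expression table, so 9 of 58302 rows are described. RNA-seq libraries had been made from total RNA of 3 established human prostate cell lines, with 4 libraries for each line, all with wild-type genotype and grown without a stated treatment in DMEM with 10% fetal bovine serum and penicillin and streptomycin. BPH-1 is a benign prostate epithelial line, and DU145 and PC3 are prostate cancer (PCa) lines that grow without androgen. The benign phenotype is represented by 1 line and PCa by 2, and the labels do not say whether the 4 libraries of a line came from separate cultures, so the p-values below measure the spread between libraries of a line, which may be technical.

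These enzymes make serine from a glycolytic intermediate and pass its carbon to folate. PHGDH oxidises 3-phosphoglycerate, PSAT1 transaminates the product and PSPH removes the phosphate to release serine. SHMT1 in the cytosol and SHMT2 in mitochondria split serine into glycine and a folate-bound carbon unit, which MTHFD1 in the cytosol and MTHFD2 in mitochondria interconvert between oxidation states. TYMS spends such a unit to make thymidylate for DNA, and MTAP recovers adenine and the sulfur-containing remnant of methylthioadenosine left by polyamine synthesis. In many tumours serine synthesis and the mitochondrial arm are high, and MTAP is often lost together with CDKN2A on chromosome 9p21.

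Levels are given as FPKM, fragments mapped to a gene scaled by its exon length and by the depth of the library, as deposited. Read numbers recovered from the steps of the values put the depth between 12950665 and 16309559 reads per library, and each enzyme had between 269 and 26526 reads in every library. Summed FPKM was lower in BPH-1 (243707 to 249733 per library) than in DU145 (289756 to 302456) and PC3 (293492 to 306698), and the values were compared as deposited. The dependence of FPKM on the GC content of genes also differed between libraries. Its slope lay between -0.74 and -0.61 on the log2 scale per 10 percentage points of GC in BPH-1 and between -0.02 and 0.72 in PC3. In DU145 it was 0.70 and 1.06 in replicates 1 and 3 and -0.18 and -0.0031 in replicates 2 and 4. For the 9 enzymes, the DU145 results are therefore also given for each pair of replicates where a call or a sign changes. The markers of prostate epithelium did not all match the labels. EPCAM was at 57.7 to 63.2 FPKM in BPH-1 and 6.92 to 11.1 in PC3 but at 0.166 to 0.573 (at most 40 reads) in the libraries labelled DU145, where CDH1 also stayed at or below 0.297 FPKM. CDH1 was at 16.3 to 44.6 FPKM in BPH-1 and 0.427 to 1.42 in PC3. The basal keratin KRT5 was at 120 to 175 FPKM in BPH-1 and at most 0.499 in DU145 and 0.0381 in PC3, while the keratins KRT8 and KRT18 were present in every library (at least 14.7 and 26.8 FPKM). KLK3, a marker of luminal prostate epithelium, had no read in any library. Of 7 markers of leukocytes, endothelium and fibroblasts, CD68 was highest, at 3.43 to 6.57 FPKM in BPH-1, 3.83 to 9.95 in DU145 and 6.86 to 13.5 in PC3. The others stayed at or below 3.84 FPKM. COL1A1 was at 1.71 to 3.08 FPKM in BPH-1, 0.354 to 0.524 in DU145 and 2.99 to 3.84 in PC3. PTPRC was at 1.15 to 1.54 FPKM in BPH-1, 0 to 1.35 in DU145 (at most 275 reads) and without a read in PC3. PECAM1 was at up to 2.28 FPKM in PC3. DCN was at 0 to 0.373 FPKM in DU145 (at most 102 reads) and without a read in BPH-1 and PC3. The part of these 7 markers in the results was not tested.

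Promoter sequences are shown for PSAT1, PHGDH and MTHFD2, which were all higher in DU145 than in BPH-1, and for TYMS, which was higher in both PCa lines. Each is the 250 bases before the RefSeq start on GRCh38.p14, on the gene's strand, and capitals mark matches to the motifs searched. Of the 9 members, 7 were matched in the promoter table, without SHMT2 and PSPH. The PSAT1 window lies at chr9:78296875-78297124, the PHGDH window at chr1:119711684-119711933, the MTHFD2 window at chr2:74198365-74198614 and the TYMS window at chr18:657403-657652, all on the plus strand. The PHGDH window lies well inside the deposited locus of that gene (119648411 to 119744226), whose start differs from the RefSeq start.
PSAT1: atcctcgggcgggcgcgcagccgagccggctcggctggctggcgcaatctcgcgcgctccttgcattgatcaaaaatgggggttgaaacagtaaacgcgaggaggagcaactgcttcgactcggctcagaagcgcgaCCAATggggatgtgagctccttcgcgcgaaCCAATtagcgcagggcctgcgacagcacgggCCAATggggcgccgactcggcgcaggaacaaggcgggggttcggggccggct
PHGDH: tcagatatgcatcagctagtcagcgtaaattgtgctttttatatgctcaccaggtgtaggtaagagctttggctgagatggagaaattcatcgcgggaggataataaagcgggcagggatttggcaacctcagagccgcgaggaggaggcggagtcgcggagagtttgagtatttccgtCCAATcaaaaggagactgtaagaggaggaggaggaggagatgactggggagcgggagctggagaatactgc
MTHFD2: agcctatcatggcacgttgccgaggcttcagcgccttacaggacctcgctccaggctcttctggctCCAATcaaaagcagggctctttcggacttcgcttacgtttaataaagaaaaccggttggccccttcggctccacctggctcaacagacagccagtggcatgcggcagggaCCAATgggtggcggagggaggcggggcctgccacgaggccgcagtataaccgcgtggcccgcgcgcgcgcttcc
TYMS: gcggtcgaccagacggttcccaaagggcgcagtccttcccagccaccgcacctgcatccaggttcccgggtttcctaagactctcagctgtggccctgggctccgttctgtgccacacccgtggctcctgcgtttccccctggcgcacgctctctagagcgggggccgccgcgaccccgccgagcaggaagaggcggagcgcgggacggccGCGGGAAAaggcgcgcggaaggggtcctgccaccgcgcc
The motifs searched on both strands were TGATGNAA (bound by ATF4 with C/EBP), CACGTG (the E-box), TTTNNCGC (an E2F site) and CCAAT, the last added after the windows had been read. No motif overlaps another in these windows. CCAAT was found in 6 of the 7 members (PHGDH, PSAT1, MTHFD1, MTHFD2, SHMT1 and MTAP) and in 32.0% of all 35116 promoters of the same length, and the PSAT1 window holds it 3 times, with last bases 109, 79 and 48 bases before the start. TTTNNCGC was found only in TYMS, 32 to 39 bases before the start on the opposite strand, against 5.92% of all promoters. CACGTG was found only in MTHFD1 (6.34% of all promoters), and TGATGNAA was in none of the 7 windows (3.14% of all promoters). A match describes the letters of the window and not a bound site.

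Across the 9 enzymes, DU145 had the largest differences. Against BPH-1, 6 enzymes were higher in DU145 (PHGDH, PSAT1, PSPH, SHMT2, MTHFD2 and TYMS), 2 were lower (MTHFD1 and MTAP) and 1 (SHMT1) did not pass the test, which was limma on log2(FPKM + 1) with an adjusted p under 0.05 over all genes tested. In this comparison 62.7% of the 17017 genes tested passed in either direction, 30.3% of them higher in DU145 and 32.4% lower. With a log2 difference over 1 asked for as well, 6 enzymes were higher and 1 lower, against 28.8% of all genes in either direction (11.5% higher and 17.3% lower). All 9 enzymes had passed the filter on low values in every comparison. The median log2 difference was 1.79 over the 9 enzymes and -0.026 over all genes.

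Against BPH-1, PC3 had 3 enzymes higher (SHMT2, PSPH and TYMS), 3 lower (SHMT1, MTHFD2 and MTAP) and 3 that did not pass (PHGDH, PSAT1 and MTHFD1), where 67.6% of all 16407 genes passed, 27.1% higher and 40.4% lower. Of these calls, MTHFD2 and MTAP took the opposite sign when each library's GC trend was divided out, and MTHFD2 also did so with upper-quartile scaling. A log2 difference over 1 left 1 enzyme higher and 1 lower, against 27% of all genes (9.42% higher and 17.6% lower). The median was -0.21 over the enzymes and -0.13 over all genes. Against DU145, PC3 had 1 enzyme higher (MTHFD1), 6 lower and 2 that did not pass (TYMS and MTAP), where 48.3% of all 16421 genes passed, 20% higher and 28.3% lower. A log2 difference over 1 left 0 enzymes higher and 5 lower, against 19.3% of all genes (8.22% higher and 11.1% lower). The median was -1.47 over the enzymes and -0.055 over all genes. The 2 comparisons with BPH-1 share its libraries, and each other pair shares a line too. The libraries of PC3 and BPH-1 did not overlap for 7 enzymes, 3 higher and 4 lower in PC3, where 64.4% of all genes did not overlap (25.8% higher and 38.6% lower). Those of DU145 and BPH-1 did not overlap for 8 enzymes, 6 higher and 2 lower in DU145, against 59.5% of all genes (28.8% higher and 30.6% lower). Those of PC3 and DU145 did not overlap for 7 enzymes, 1 higher and 6 lower in PC3, against 46.5% of all genes (19.1% higher and 27.5% lower). An exact two-sided permutation test of 4 libraries against 4 cannot go below p = 0.0286, which was reached wherever the libraries did not overlap. In these bulk samples a larger share of cells expressing a gene and more RNA per cell cannot be told apart.

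**Figure D1:**
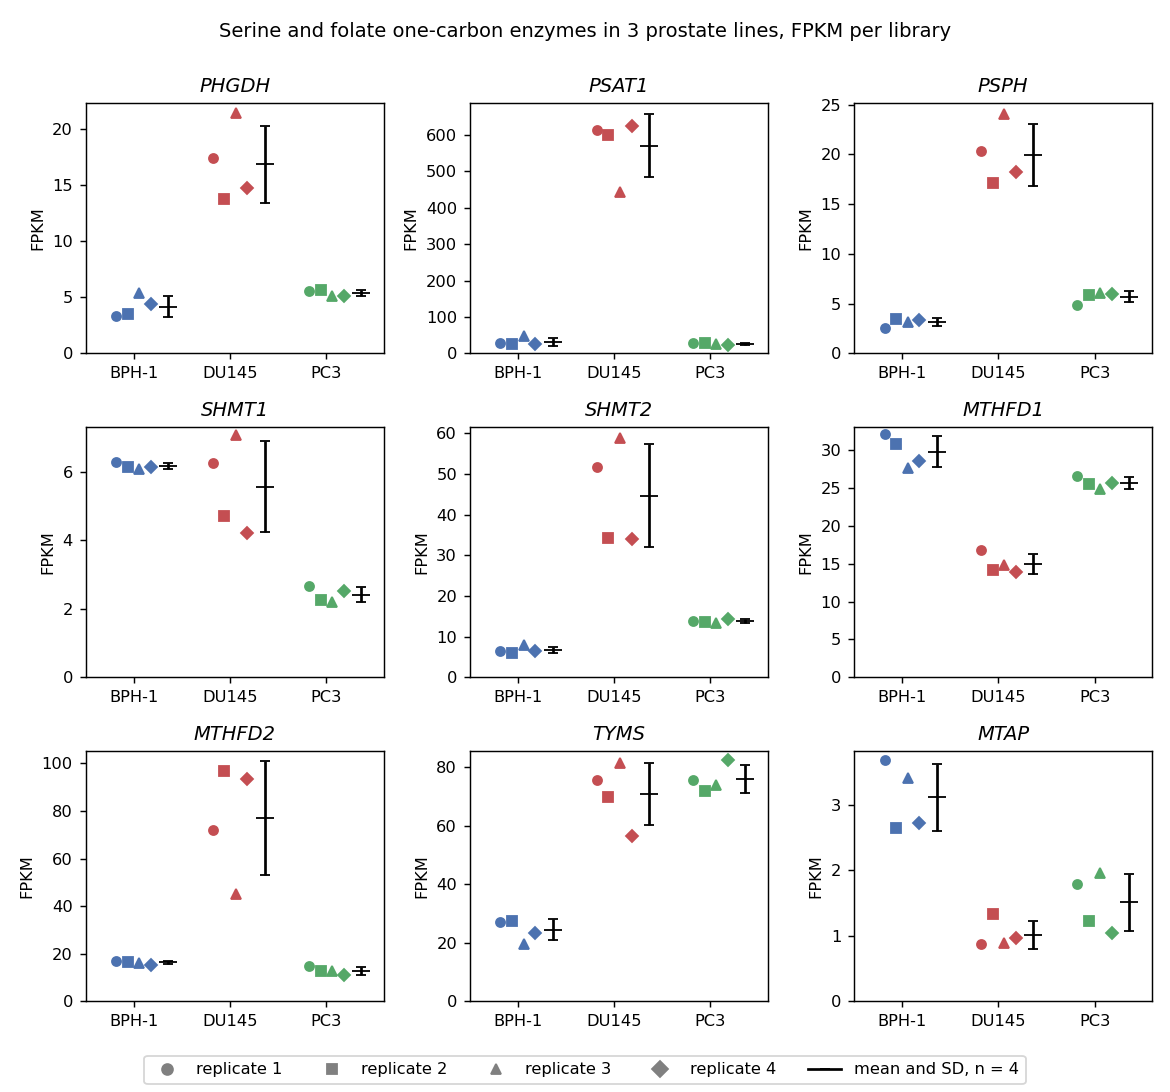
FPKM of each enzyme (y axis, linear and starting at 0, with its own range in each panel) in the 4 libraries of BPH-1, DU145 and PC3, with symbols for replicates 1 to 4 and bars for the mean and SD of 4 libraries. PSAT1 reads 443 to 624 in DU145 and at most 47.7 elsewhere, while TYMS is high in both PCa lines and MTHFD1 is lowest in DU145.

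**Figure D2:**
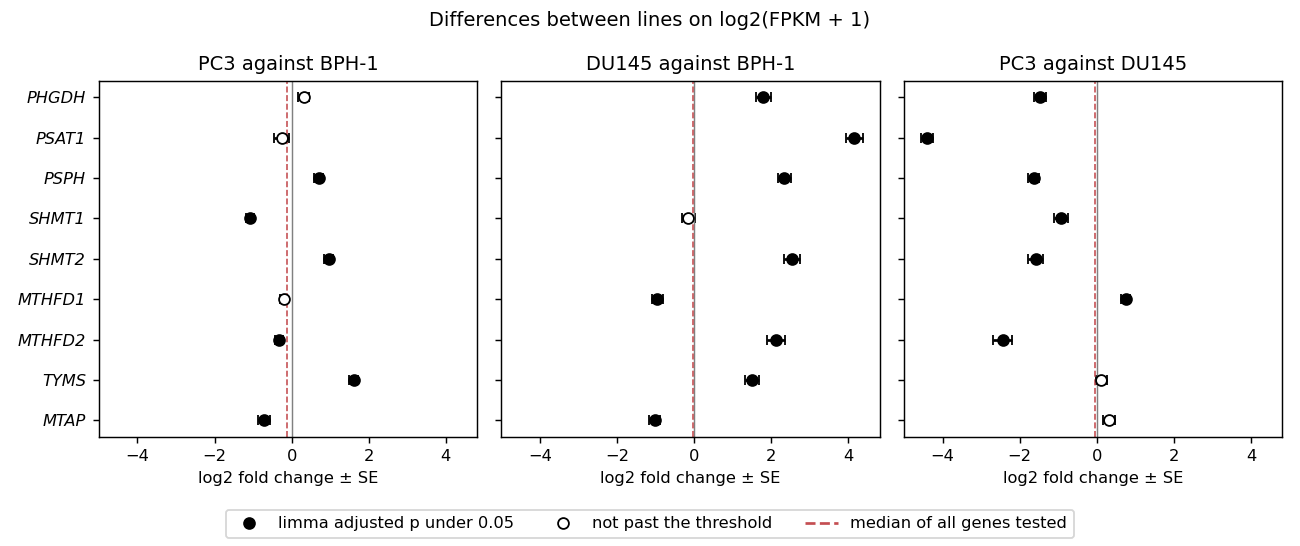
Log2 difference between lines with its standard error (x axis) for each enzyme, in the 3 comparisons. Filled circles passed limma's adjusted p under 0.05, open circles did not, and the dashed line is the median of all genes tested. In DU145 against BPH-1 the filled circles reach 4.15 (PSAT1), and in PC3 against DU145 they reach -4.41.

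All 3 enzymes of serine synthesis were several-fold higher in DU145 than in either other line, and PSAT1 had the largest difference of the 9 enzymes. PSAT1 (phosphoserine aminotransferase, chromosome 9, 78297143 to 78330093, plus strand) read 29.2, 25.0, 47.7 and 26.2 FPKM in BPH-1 replicates 1 to 4, 615, 601, 443 and 624 in DU145, and 27.8, 27.7, 24.7 and 22.7 in PC3. The 4 DU145 libraries lay far above the other 8, and the BPH-1 and PC3 libraries overlapped. The mean of 571 ± 85.8 FPKM (SD, n = 4) in DU145 was 17.8-fold that of BPH-1 (32.0 ± 10.6) and 22.2-fold that of PC3 (25.7 ± 2.51). On the log2 scale the difference was 4.15 (SE 0.22, adjusted p = 4.99e-07) from BPH-1 and, for PC3 against DU145, -4.41 (SE 0.15, adjusted p = 1.16e-07). PC3 and BPH-1 differed by -0.26 (SE 0.19, adjusted p = 0.251), which became -0.53 with FPKM rescaled to the same sum (adjusted p = 0.0357), 0.14 with upper-quartile scaling and 0.53 with the GC trend divided out (adjusted p = 0.0426).

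PHGDH (phosphoglycerate dehydrogenase, chromosome 1, 119648411 to 119744226, plus strand) makes the entry step of the pathway. It read 3.34, 3.49, 5.39 and 4.4 FPKM in BPH-1, 17.4, 13.7, 21.4 and 14.7 in DU145, and 5.56, 5.61, 5.08 and 5.13 in PC3. DU145 lay above all other libraries, and BPH-1 replicate 3 lay inside the PC3 range. The log2 difference of DU145 from BPH-1 was 1.79 (SE 0.19, adjusted p = 3.45e-05), a 4.05-fold ratio of the means, and that of PC3 from DU145 was -1.47 (SE 0.16, adjusted p = 6.51e-05). PC3 was at 1.29-fold the mean of BPH-1 (log2 difference 0.32, SE 0.14, adjusted p = 0.0718), which passed when BPH-1 replicate 3 was left out (0.43, adjusted p = 0.0179), with median-of-ratios scaling (0.40, adjusted p = 0.0294) and with upper-quartile scaling (0.66, adjusted p = 0.00317), and was 0.085 with the GC trend divided out.

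PSPH (phosphoserine phosphatase, chromosome 7, 56011051 to 56051604, minus strand) makes the final step and was the only one of the serine synthesis enzymes past the test in all 3 comparisons. Its FPKM was 2.56, 3.42, 3.18 and 3.37 in BPH-1, 20.3, 17.1, 24.1 and 18.3 in DU145, and 4.90, 5.84, 6.09 and 5.95 in PC3. The 3 lines did not overlap, in the order BPH-1, PC3 and DU145. DU145 was 6.37-fold BPH-1 (log2 difference 2.34, SE 0.16, adjusted p = 2.23e-06), PC3 was 1.82-fold BPH-1 (0.70, SE 0.12, adjusted p = 0.000632) and PC3 was lower than DU145 by a log2 difference of -1.64 (SE 0.15, adjusted p = 2.16e-05).

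In PC3 the mitochondrial and cytosolic hydroxymethyltransferases differed from BPH-1 in opposite directions, and in DU145 the mitochondrial enzyme was higher while the cytosolic one did not pass the test. SHMT2, the mitochondrial enzyme (chromosome 12, 57229327 to 57234935, plus strand), read 6.42, 6.01, 7.87 and 6.45 FPKM in BPH-1, 51.6, 34.2, 59.0 and 34.0 in DU145, and 13.9, 13.7, 13.4 and 14.4 in PC3. The 3 lines did not overlap. SHMT2 was 6.68-fold higher in DU145 (log2 difference 2.54, SE 0.21, adjusted p = 6.31e-06) and 2.07-fold higher in PC3 (0.96, SE 0.11, adjusted p = 3.89e-05) than in BPH-1, and lower in PC3 than in DU145 (-1.58, SE 0.19, adjusted p = 0.000152).

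SHMT1, the cytosolic enzyme (chromosome 17, 18327860 to 18363563, minus strand), read 6.29, 6.14, 6.09 and 6.15 FPKM in BPH-1, 6.25, 4.70, 7.07 and 4.22 in DU145, and 2.67, 2.27, 2.19 and 2.51 in PC3. The PC3 libraries lay below all others, and the DU145 libraries lay on both sides of BPH-1. SHMT1 was lower in PC3 than in BPH-1 (log2 difference -1.07, SE 0.10, adjusted p = 1.45e-05) and than in DU145 (-0.92, SE 0.17, adjusted p = 0.002). DU145 and BPH-1 differed by -0.15 (SE 0.17, adjusted p = 0.471). That value was -0.39 with DU145 replicates 2 and 4 alone (adjusted p = 0.0122), 0.094 with replicates 1 and 3 alone, 0.11 with upper-quartile scaling and -0.53 with the GC trend divided out (adjusted p = 0.00264).

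Between genes, levels were compared per length of merged exons, since the length in the deposited FPKM counts overlapping exons of a gene more than once (3.71 times for SHMT2, 1.46 times for SHMT1). On that scale the ratio of SHMT2 to SHMT1 was 2.75 ± 0.358 (SD, n = 4) in BPH-1, 14.7 ± 1.06 in PC3 and 20.3 ± 1.22 in DU145. Single libraries ran from 2.49 to 3.28 in BPH-1, 13.2 to 15.6 in PC3 and 18.5 to 21.2 in DU145, so the lines did not overlap.

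**Figure D3:**
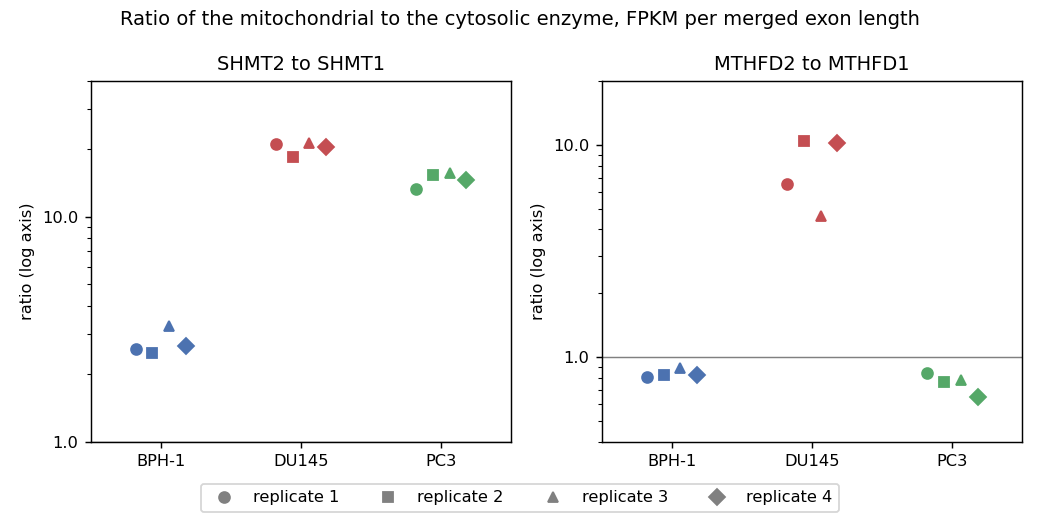
Ratio of SHMT2 to SHMT1 and of MTHFD2 to MTHFD1 (y axes, log scale, FPKM per merged exon length) in each of the 4 libraries of BPH-1, DU145 and PC3. The SHMT ratio is at least 13.2 in every library of both PCa lines and at most 3.28 in BPH-1, while the MTHFD ratio is above 1 (grey line) in DU145 alone. The GC trend is not divided out here.

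The folate dehydrogenases moved in opposite directions in DU145. MTHFD2, the mitochondrial enzyme that is low in most resting adult tissue (chromosome 2, 74198562 to 74217565, plus strand), read 17.1, 16.7, 16.1 and 15.4 FPKM in BPH-1, 72, 96.9, 45.0 and 93.5 in DU145, and 14.7, 12.8, 12.7 and 10.9 in PC3. DU145 was above all others but spread widely, with replicates 2 and 4 above replicates 1 and 3. The mean in DU145 was 76.9 ± 23.9 FPKM (SD, n = 4), 4.72-fold that of BPH-1 (log2 difference 2.11, SE 0.23, adjusted p = 3.78e-05) and 6.02-fold that of PC3 (-2.45 for PC3 against DU145, SE 0.24, adjusted p = 3.73e-05). The log2 difference from BPH-1 was 1.75 with DU145 replicates 1 and 3 alone, 2.48 with replicates 2 and 4 alone and 3.18 with the GC trend divided out. PC3 was lower than BPH-1 by -0.33 (SE 0.11, adjusted p = 0.0214), with libraries that did not overlap. That call was lost in 1 fit over all 3 lines (adjusted p = 0.178), without BPH-1 replicate 1 (adjusted p = 0.0567) and with median-of-ratios scaling (-0.24, adjusted p = 0.0758), and the difference was 0.053 with upper-quartile scaling and 0.58 with the GC trend divided out (adjusted p = 0.00476).

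MTHFD1, the cytosolic enzyme with 3 activities in 1 protein (chromosome 14, 64388031 to 64463457, plus strand), read 32.1, 30.9, 27.6 and 28.5 FPKM in BPH-1, 16.8, 14.1, 14.8 and 13.9 in DU145, and 26.6, 25.5, 24.8 and 25.6 in PC3. The lines did not overlap, with DU145 lowest. MTHFD1 in DU145 was lower than in BPH-1 (log2 difference -0.96, SE 0.14, adjusted p = 0.000214), and PC3 was higher than DU145 (0.75, SE 0.12, adjusted p = 0.000607). PC3 and BPH-1 differed by -0.21 (SE 0.09, adjusted p = 0.0665, exact permutation p = 0.0286), which passed with FPKM rescaled to the same sum (-0.47, adjusted p = 0.00147) and was 0.19 with upper-quartile scaling. Per merged exon length the ratio of MTHFD2 to MTHFD1 was 0.835 ± 0.0342 (SD, n = 4) in BPH-1, 0.759 ± 0.0817 in PC3 and 7.98 ± 2.86 in DU145. In DU145 single libraries ran from 4.64 to 10.5. With the GC trend divided out, mean MTHFD2 was 10.0 FPKM in BPH-1, 15.7 in PC3 and 101 in DU145, over the deposited length. Mean MTHFD1 was then 29.7, 26.1 and 14.8, so the ratio was higher in PC3 than in BPH-1 and still highest in DU145.

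TYMS, which makes thymidylate and is the target of fluorouracil, was higher in both PCa lines and reached like levels in them. It lies on chromosome 18 (657604 to 673578, plus strand) and read 27.1, 27.4, 19.7 and 23.4 FPKM in BPH-1, 75.7, 69.7, 81.3 and 56.4 in DU145, and 75.6, 71.7, 73.9 and 82.4 in PC3. No BPH-1 library reached those of the PCa lines, whose ranges overlapped. TYMS was 3.11-fold higher in PC3 (log2 difference 1.61, SE 0.12, adjusted p = 3.62e-06) and 2.90-fold higher in DU145 (1.5, SE 0.17, adjusted p = 4.93e-05) than in BPH-1. PC3 and DU145 differed by 0.11 (SE 0.14, adjusted p = 0.551), which was 0.32 with the GC trend divided out (adjusted p = 0.0455) and -0.048 with DU145 replicates 1 and 3 alone.

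MTAP, the methylthioadenosine phosphorylase (chromosome 9, 21802543 to 21937651, plus strand), was detected in every library and lowest per length of the 9 enzymes in each line. It read 3.68, 2.65, 3.41 and 2.73 FPKM in BPH-1, 0.874, 1.33, 0.890 and 0.962 in DU145, and 1.79, 1.23, 1.97 and 1.05 in PC3, from at least 269 reads. The BPH-1 libraries lay above all others, and DU145 and PC3 overlapped. MTAP was lower than in BPH-1 in DU145 (log2 difference -1.03, SE 0.15, adjusted p = 0.000224) and in PC3 (-0.72, SE 0.16, adjusted p = 0.0024), while PC3 and DU145 differed by 0.31 (SE 0.16, adjusted p = 0.136). With the GC trend divided out neither held, at -0.0013 in DU145 (adjusted p = 0.996) and 0.23 in PC3 (adjusted p = 0.257). MTAP had the lowest GC content of the 9 enzymes (41.3%, against a median of 49.4% over 12429 genes).

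Per merged exon length the order of the enzymes differed between lines. In BPH-1, TYMS (43.3 ± 6.45 FPKM, SD, n = 4), PSAT1 (39.0 ± 12.9) and MTHFD1 (38.1 ± 2.65) were highest and differed from TYMS by less than its SD. In PC3, TYMS (134 ± 8.19) stood above SHMT2 (51.4 ± 1.60), MTHFD1 (32.8 ± 0.955) and PSAT1 (31.3 ± 3.05), of which the last 2 differed by less than 1 SD. In DU145, PSAT1 (694 ± 104) stood above SHMT2 (166 ± 46.8), MTHFD2 (150 ± 46.7) and TYMS (125 ± 18.9), of which the last 3 overlapped within their SDs. PSPH and PHGDH were at 8.19 and 8.80 in BPH-1, 14.9 and 11.3 in PC3 and 52.2 and 35.6 in DU145. The GC trend was not divided out of these levels, and their order depends on it. In BPH-1, dividing it out moved the mean over deposited length from 32.0 to 21.2 FPKM (PSAT1) and from 24.4 to 27.1 (TYMS). In DU145 it moved that of MTHFD2 from 76.9 to 101 and that of SHMT2 from 44.7 to 36.8.

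The levels of several enzymes within DU145 differed between libraries of larger and smaller GC slope. SHMT2 (57.4% GC), PHGDH (56.2%), SHMT1 (53.1%) and PSPH (51.2%) were higher in replicates 1 and 3, which had the larger slopes, and MTHFD2 (43.1%) and PSAT1 (43.7%) were lowest in replicate 3, which had the largest. Dividing out each library's GC trend lowered the coefficient of variation in DU145 from 28.2% to 8.73% for SHMT2 and from 20.4% to 4.94% for PHGDH. It lowered that of MTHFD2 from 31.2% to 23.3%, and it raised that of PSAT1 from 15% to 37.2%, of MTHFD1 from 8.90% to 20.2% and of MTAP from 21.3% to 50.9%. PSAT1 in replicate 1 (615 FPKM) was level with replicates 2 and 4, and MTHFD1, with a GC content of 47.9%, was also higher in replicates 1 and 3. The 6 enzymes higher in DU145 than in BPH-1 were higher with either pair of DU145 replicates and with the GC trend divided out. Variation between lines that itself goes with GC content is taken away by that step as well.

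**Figure D4:**
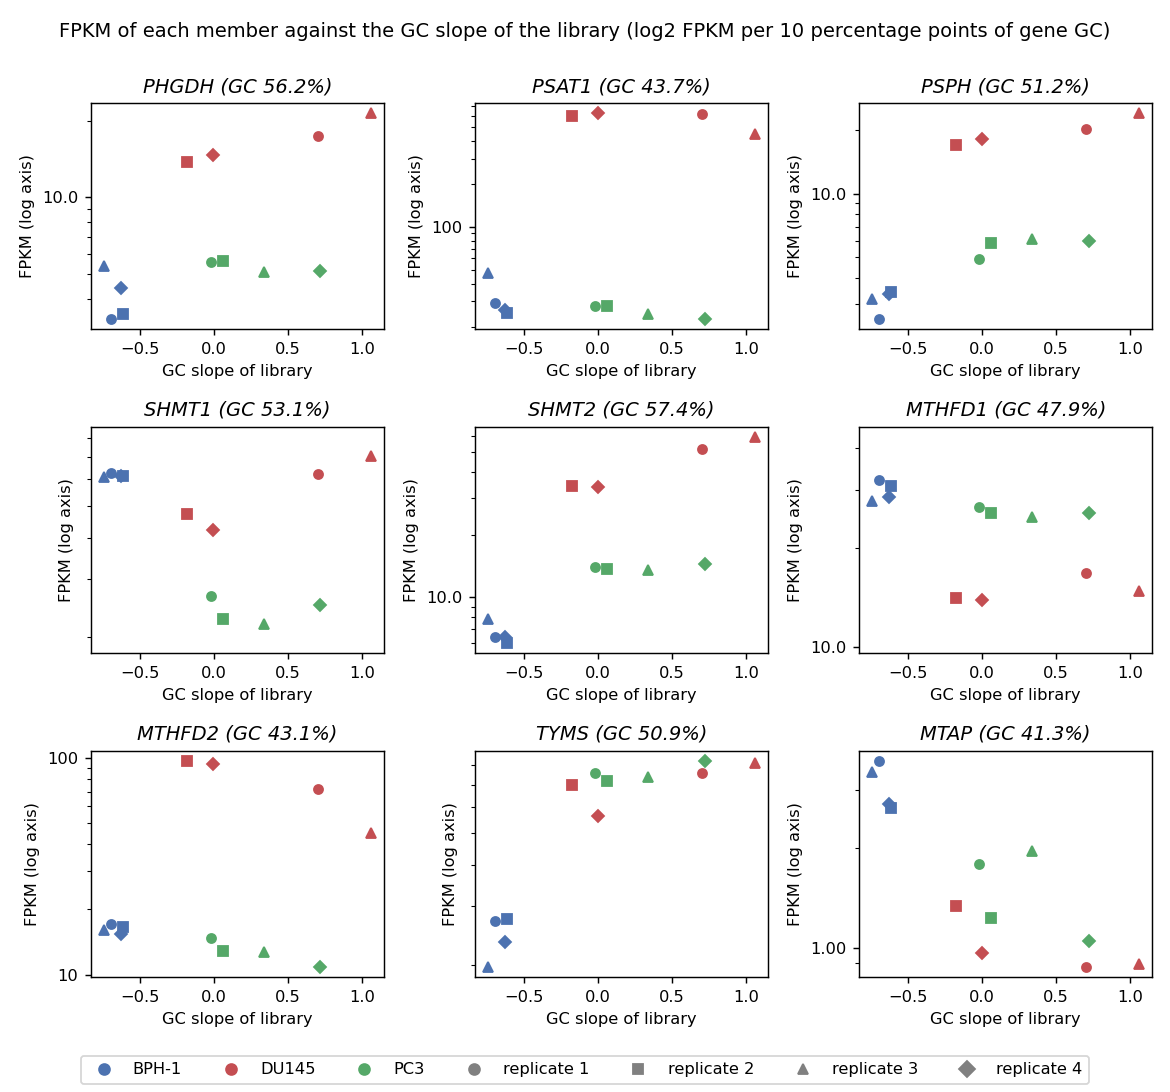
FPKM of each enzyme (y axis, log scale) against the GC slope of the library (x axis, log2 FPKM per 10 percentage points of gene GC), with colours for lines, symbols for replicates and the GC content of the gene in each title. The BPH-1 libraries sit between -0.74 and -0.61, and within DU145 the level of SHMT2 is higher and that of MTHFD2 lower in the libraries with the larger slopes (0.70 and 1.06).

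Copies of some members carried reads too, and the sources used here do not give how reads shared by near-identical genes were counted or whether strand was used. PSPHP1, an unprocessed copy of PSPH on chromosome 7 (55764797 to 55773288), had no read in BPH-1, 12 to 33 reads in DU145 (5.26 ± 2.36 FPKM, SD, n = 4) and 5 to 7 in PC3 (1.64 ± 0.215). Against the level that 3 reads per library would give in BPH-1 (0.744 FPKM), it was at least 7.08-fold higher in DU145 and at least 2.21-fold higher in PC3. PSAT1P3, a processed copy on chromosome 1, followed PSAT1 at 0.290 ± 0.236 FPKM in BPH-1, 6.36 ± 1.71 in DU145 and 0.302 ± 0.0587 in PC3. MTHFD2P7 was at 0.460, 1.70 and 0.267 FPKM in BPH-1, DU145 and PC3, and MTHFD1P1 at 2.42, 1.46 and 2.16, in the order of their parent genes. MTAPP2 was at 0.991, 0.225 and 0.293 FPKM. The values of these members and their copies are uncertain to the extent that reads were split between them, and the copies' reads were at most a small part of the members' own (at most 128 reads for PSAT1P3 against 18188 to 26526 for PSAT1 in DU145).

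Several members overlap genes on the opposite strand, whose reads cannot be told apart without strand. ENOSF1 shares 3255 bases with the 3' end of TYMS and was at 1.96 ± 0.113 FPKM in BPH-1, 3.83 ± 0.532 in DU145 and 2.08 ± 0.0831 in PC3. It was higher in DU145 than in BPH-1 (log2 difference 0.70, SE 0.15, adjusted p = 0.00219), while PC3 and BPH-1 differed by 0.056 (adjusted p = 0.617). TYMSOS, which starts beside TYMS, was higher in both PCa lines (0.75 in PC3, adjusted p = 0.00118, and 0.79 in DU145, adjusted p = 0.00166). SMCR8 shares 196 bases with SHMT1 and was lower in PC3 than in BPH-1 (-0.46, adjusted p = 0.00515). NDUFA4L2 shares 33 bases with SHMT2 and was at 0.0661 FPKM in BPH-1, 1.05 in DU145 and 0.0924 in PC3. ZBTB25, which shares 14352 bases of its locus with MTHFD1, was lower than in BPH-1 in DU145 (-0.79, adjusted p = 0.00846) and PC3 (-0.56, adjusted p = 0.0147). Other overlapping genes had few reads. AL122035.1 and AL122035.2, antisense to MTHFD1, had at most 18 and 31 reads per library, and AC006030.1 and SLC4A5, opposite to the end of MTHFD2, at most 28 and 74. AC137834.2, antisense to SHMT2, had at most 10. On the strand of MTAP, AL359922.3 had 27 to 64 reads in BPH-1 and at most 3 in the PCa lines (log2 difference -1.42 in PC3, adjusted p = 4.04e-05, and -1.52 in DU145, adjusted p = 2.96e-05), and AL359922.1 and ERVFRD-3 had at most 5 and 10 reads. No annotated gene overlapped PHGDH, PSAT1 or PSPH.

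Among 18 other genes of the folate cycle, DU145 against BPH-1 had 6 higher, 2 lower and 7 not past the test of 15 tested, and PC3 had 3 higher, 7 lower and 5 not past. Over all genes tested, 62.7% passed in DU145 (30.3% higher and 32.4% lower) and 67.6% in PC3 (27.1% higher and 40.4% lower). The PC3 counts were 4 higher and 3 lower with upper-quartile scaling, and the DU145 counts were 6 and 5 with DU145 replicates 1 and 3 alone and 5 and 1 with replicates 2 and 4 alone. ALDH1L2, the mitochondrial formyltetrahydrofolate dehydrogenase, was at 0.551 ± 0.174 FPKM (SD, n = 4) in BPH-1, 3.81 ± 3.25 in DU145 and 0.0515 ± 0.0333 in PC3, and passed in all 3 comparisons. Its DU145 libraries ran from 0.875 to 6.88. The log2 difference of ALDH1L2 between DU145 and BPH-1 ran from 0.37 to 2.30 over the scalings and the pairs of DU145 replicates, with no call lost. MTHFS, which returns formyltetrahydrofolate to the cycle, passed in all 3 as well, at 7.06, 11.2 and 4.29 FPKM in BPH-1, DU145 and PC3, but its call in DU145 against BPH-1 was lost with DU145 replicates 2 and 4 alone, with FPKM rescaled to the same sum and with the GC trend divided out. MTHFD1L, which completes the mitochondrial arm, was at 11.4 FPKM in BPH-1, 13.7 in DU145 (adjusted p = 0.252) and 7.94 in PC3 (log2 difference -0.45 from BPH-1, adjusted p = 0.0126, lost with upper-quartile scaling at -0.078). MTHFD2L, the relative of MTHFD2, was low in all lines (0.420, 0.393 and 0.708 FPKM in BPH-1, DU145 and PC3).

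Serine and glycine carriers were mostly higher in DU145. Of 5 tested, 4 were higher and 1 lower than in BPH-1, and PC3 against DU145 had 0 higher, 3 lower and 2 not past by limma (4 lower with DU145 replicates 1 and 3 alone). Over all genes 30.3% were higher and 32.4% lower in DU145 than in BPH-1, and 20% higher and 28.3% lower in PC3 than in DU145. SLC6A9, a glycine transporter, was at 2.27 ± 0.463 FPKM (SD, n = 4) in BPH-1, 19.0 ± 4.69 in DU145 and 4.99 ± 1.06 in PC3, past the test in every comparison. Chosen after their values were seen, SLC1A4 was at 2.73, 14.7 and 2.64 FPKM and SLC1A5 at 36.3, 127 and 33.2 in BPH-1, DU145 and PC3. The lower one, named for that reason, was SFXN1, the mitochondrial serine carrier, at 13.1 FPKM in BPH-1, 6.87 in DU145 and 7.52 in PC3, although no carrier was lower in DU145 with the GC trend divided out.

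In purine synthesis, which takes up formyl units from folate, DU145 had 3 of 6 genes higher than BPH-1, 1 lower and 2 not past, and PC3 had 0 higher, 1 lower and 5 not past by limma (3 higher and 1 lower with upper-quartile scaling). The DU145 counts were 4 higher and 2 lower with replicates 1 and 3 alone, 2 and 0 with replicates 2 and 4 alone and 4 and 0 with the GC trend divided out. Of the 7 genes of thymidylate and deoxynucleotide supply, PC3 had 3 higher and 2 lower than BPH-1 and DU145 had 1 higher and 3 lower. Proliferation genes went the other way from TYMS, with all 6 lower in PC3 and 5 of 6 lower in DU145 than in BPH-1. Beside the counts of these lists, 27.1% of all genes were higher and 40.4% lower in PC3, and 30.3% and 32.4% in DU145. PCNA, the sliding clamp of replication, was at 155, 48.2 and 81.2 FPKM in BPH-1, DU145 and PC3 and passed in all 3 comparisons, of which PC3 against DU145 was lost with DU145 replicates 2 and 4 alone. MKI67, TOP2A, TK1 and RRM1 were chosen after their values were seen. MKI67 was at 73.6 to 86.1 FPKM in BPH-1, 0.297 to 8.59 in DU145 and 2.04 to 18.7 in PC3, and TOP2A at 91.6 to 109, 0.943 to 10.3 and 1.05 to 11.3. TK1, the salvage kinase for thymidine, was higher with TYMS in both PCa lines, at 13.2 FPKM in BPH-1, 31.8 in DU145 and 33.7 in PC3. RRM1, of the same list as TK1, was lower in both, at 33.2 FPKM in BPH-1, 13.7 in DU145 and 11.6 in PC3. With the GC trend divided out, 4 of the 6 proliferation genes were lower in each PCa line and 1 was higher in PC3.

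ATF4 is the transcription factor of the amino acid response, and PHGDH, PSAT1, SHMT2 and MTHFD2 are among its known targets. Of a list of ATF4 and 10 other known targets, 10 of 11 were higher in DU145 than in BPH-1 and 1 was not past the test, all 11 were lower in PC3 than in DU145, and PC3 against BPH-1 had 2 higher, 4 lower and 5 not past. The median log2 difference of the list was 2.18, -2.14 and -0.097 in the 3 comparisons in that order, beside -0.026, -0.055 and -0.13 over all genes. In the same order 30.3%, 20% and 27.1% of all genes were higher and 32.4%, 28.3% and 40.4% lower. The counts in DU145 against BPH-1 were 10 or 11 higher and 0 lower under every scaling run, 11 with the GC trend divided out, and 10 higher and 1 lower with DU145 replicates 1 and 3 alone. Those in PC3 against BPH-1 moved to 4 higher and 2 lower with upper-quartile scaling and 1 higher and 5 lower with FPKM rescaled to the same sum. ATF4 itself was at 47.5 ± 8.61 FPKM (SD, n = 4) in BPH-1, 193 ± 46.2 in DU145 and 62.0 ± 5.38 in PC3 (log2 difference of DU145 from BPH-1 1.99, SE 0.21, adjusted p = 2.5e-05). ASNS, asparagine synthetase, was at 6.34, 69.7 and 4.84 FPKM in BPH-1, DU145 and PC3 (3.51 in DU145 against BPH-1, SE 0.37, adjusted p = 2.92e-05), with BPH-1 libraries between 3.05 and 14.6. DDIT4, an inhibitor of mTORC1, was at 50.9, 229 and 15.6 FPKM and ATF3 at 2.31, 14.6 and 1.02. VLDLR was at 0.136, 5.11 and 0.484 FPKM and CEBPB at 38.7, 101 and 21.7. The exception in DU145, named for that reason, was the cystine carrier SLC7A11, at 9.77 ± 4.32 FPKM in BPH-1 and 5.69 ± 3.83 in DU145 (log2 difference -0.77, SE 0.46, adjusted p = 0.162).

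**Figure D5:**
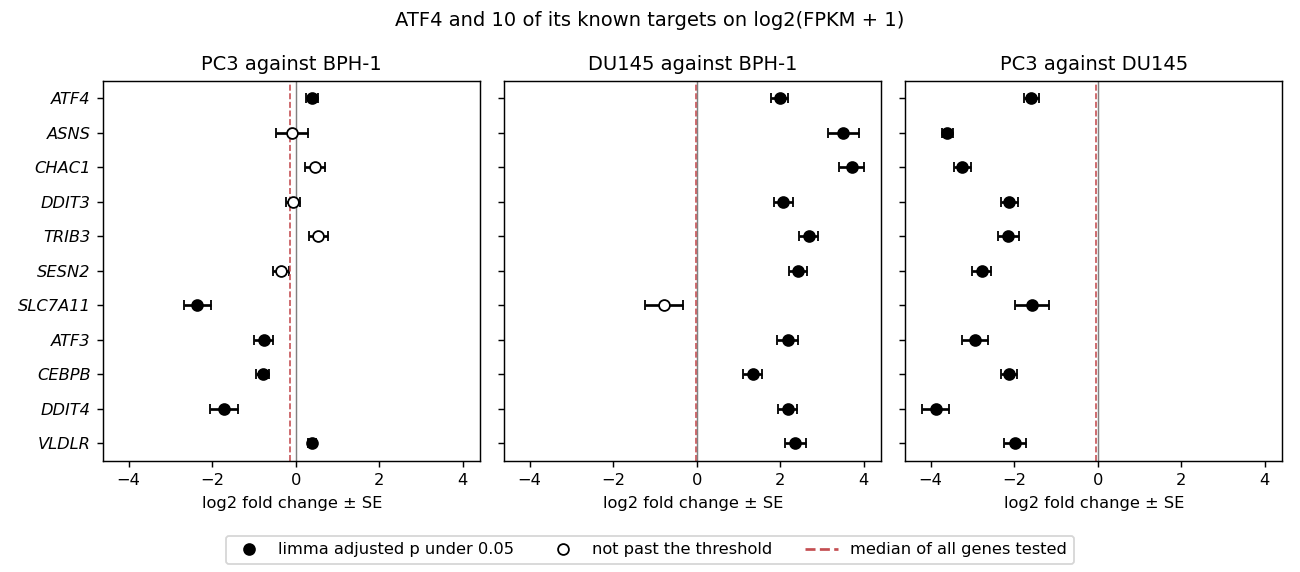
Log2 difference with its standard error (x axis) for ATF4 and 10 of its known targets in the 3 comparisons. Filled circles passed limma's adjusted p under 0.05, open circles did not, and the dashed line is the median of all genes tested. All genes but SLC7A11 lie to the right of 0 in DU145 against BPH-1, and all 11 lie to the left in PC3 against DU145.

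Of 8 neighbours of MTAP on 9p21, each PCa line had 5 lower than BPH-1, 0 higher and 3 not past the test. Over all genes tested, 67.6% passed in PC3 (27.1% higher and 40.4% lower) and 62.7% in DU145 (30.3% higher and 32.4% lower). With the GC trend divided out PC3 had 2 higher and 2 lower and DU145 1 higher and 4 lower. CDKN2A, the tumour suppressor beside MTAP, was detected in all lines, at 33.8 ± 5.76 FPKM (SD, n = 4) in BPH-1, 24.5 ± 10.9 in DU145 and 10.7 ± 0.862 in PC3 (log2 difference of PC3 from BPH-1 -1.56, SE 0.13, adjusted p = 7.92e-06, and of DU145 -0.52, adjusted p = 0.114). CDKN2B was at 12.3, 5.69 and 10.1 FPKM in BPH-1, DU145 and PC3 (-0.99 in DU145 against BPH-1, adjusted p = 0.00139). The antisense CDKN2B-AS1 was at 0.435, 0.232 and 0.132 FPKM, lower in both PCa lines, although with the GC trend divided out both calls were lost and the sign turned in DU145.

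The genes most like each member were found by Pearson's r of log2(FPKM + 1) over the 12 libraries, among 12907 genes with a mean of at least 1 FPKM. These libraries form 3 lines, and their depth and GC slope differ between and within lines, so the values are descriptive. PSAT1 was most like RAB39B (r = 0.992) and its own copy PSAT1P3 (0.992), and MTHFD2 was most like LIMCH1 (0.996) and DAW1 (0.993). SHMT2 was most like HAX1 (0.994) and ASRGL1 (0.993), PSPH like RNF41 (0.995) and NPC1 (0.994), and PHGDH like CHTOP (0.987) and CDC42EP1 (0.987). These genes were all highest in DU145, such as RAB39B at 0.0969, 6.64 and 0.0262 FPKM in BPH-1, DU145 and PC3. TYMS was most like S100A3 (0.996) and GALNT2 (0.990), both high in the 2 PCa lines. MTHFD1 was most like RBM23 (0.983) and HMGB2 (0.982), SHMT1 like TRIP6 (0.986) and PHF2 (0.985), and MTAP like STON2 (0.962) and FRG1 (0.955).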

How the data were processed

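Total RNA had been extracted with TRIzol and made into libraries with an NEB kit, and the submitters' processing notes name CASAVA 1.8, HISAT2 2.1.0, edgeR and the build GRCh38 (hg38). The counter, the annotation release and the use of strand are not given in the sources used here. The authors deposited 1 table of 58302 genes with 12 columns, all of which match a labelled library. Its header names no unit, and the deposited values have the form of FPKM over the summed length of a gene's distinct exons in GENCODE 29. With these lengths 92.1% to 93.6% of low values (at most 30 reads) came out as whole reads within a tolerance of 0.02, against 16.0% to 19.4% with merged exons, which gave the depth of each library. That depth was not read from counts, and 263 genes had no GENCODE 29 length. The length of MTAP was taken from the steps of its own values. Replicates differed beyond counting noise in every pair of libraries of a line.

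A gene entered a comparison if its FPKM equalled 10 or more reads in a library of median depth for 4 or more of the libraries, with 15 or more reads in total. Each comparison of 2 lines was fitted to log2(FPKM + 1) with limma 3.58.1 (trend, R 4.3.3) on the 8 libraries compared, with Benjamini-Hochberg adjustment over all genes tested and a threshold of 0.05. Fold changes are on the log2(FPKM + 1) scale, which understates changes of low genes. The scripts were tested on simulated data. The alternatives were another pseudocount, other filters, other scalings, 1 fit over all lines, a replicate block and leaving out each library. Added after seeing the data were voom on the recovered reads, division by each library's GC trend (a spline over genes with at least 50 reads on average) and DU145 replicates 1 and 3 or 2 and 4 alone.

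The members and the gene lists were chosen with earlier results of these data known. The members were named, and their copies and the genes overlapping them where detected, apart from those with at most 4 reads in every library. Genes named from the lists were a fixed set (MTHFD1L, MTHFD2L, ATF4, ASNS, CDKN2A, CDKN2B and others not reported here) and, at most 4 a list, those past the test in all 3 comparisons with the largest difference, and others are said to be chosen after their values were seen. The most alike genes were the 2 with the highest r for each member. The same-numbered libraries of 2 lines are not stated to share a batch. Means, exact permutation tests and figures were made in Python 3.11.15 (numpy 2.4.6, pandas 2.3.3, matplotlib 3.10.9).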

Additional observations from a re-analysis of the deposited data

Results flagged for a closer look

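In 5 of 54 groups of 4 libraries, 1 library lay so far from the other three that its gap to the nearest, over the range of the group, passed Dixon's critical value for 4 samples. Chance alone gives about 5% of groups. PSAT1 was lower in DU145 replicate 3, at 443 FPKM, than in the other DU145 libraries (601 to 624), and without that replicate DU145 stayed above BPH-1 and PC3 past the test. ENOSF1, which overlaps TYMS, was lowest in the same replicate at 3.04 FPKM. That library also had the largest GC slope of the 12 (1.06), whose part in these values was not tested. The 3 remaining libraries concern pseudogenes with few reads. PSAT1P3 was highest in PC3 replicate 3 at 0.389 FPKM, and MTAPP2 was highest in DU145 replicate 4 at 0.448 FPKM and in PC3 replicate 1 at 0.371 FPKM, each from at most 6 reads.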

How the results depend on the processing

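Of 549 values of the 9 enzymes under the alternatives, 527 kept their direction and their side of the threshold, 4 lost it, 9 gained it and 9 turned their sign. Signs turned in PC3 against BPH-1 with upper-quartile scaling for MTHFD1 (0.19), MTHFD2 (0.053) and PSAT1 (0.14), and with the GC trend divided out for MTHFD2 (0.58), PSAT1 (0.53) and MTAP (0.23). They turned in DU145 against BPH-1 for SHMT1 with upper-quartile scaling (0.11) and with DU145 replicates 1 and 3 alone (0.094), and in PC3 against DU145 for TYMS with those replicates alone (-0.048). In PC3 against BPH-1, 5 enzymes were lower with FPKM rescaled to the same sum, 5 were higher and 1 lower with the GC trend divided out, and 1 was higher and 1 lower with a log2 difference over 1 required. That requirement left 1 lower in DU145 against BPH-1 and 0 higher in PC3 against DU145, where dividing out the GC trend gave 2 higher. The cause of these changes was not tested. Over all genes, PC3 against BPH-1 had 4452 higher and 6634 lower as deposited, 6166 and 4986 with upper-quartile scaling and 5079 and 5345 with the GC trend divided out. DU145 against BPH-1 had 5161 and 5507 as deposited, 6136 and 4578 with upper-quartile scaling and 4131 and 6570 with the same sum. Upper-quartile scaling moved the median of all genes from -0.13 to 0.0998 in PC3 and from -0.026 to 0.14 in DU145.

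Replicate numbers did not pair the libraries, since the correlation of deviations of same-numbered libraries ran from -0.10 to -0.066 for BPH-1 and DU145, from -0.19 to 0.12 for BPH-1 and PC3 and from -0.72 to 0.58 for DU145 and PC3. With the replicate number as a block, the enzymes kept 3 higher and 3 lower in PC3 against BPH-1, 6 and 2 in DU145 against BPH-1 and 1 and 6 in PC3 against DU145. The alternatives with count models were not run, because the table holds FPKM, and voom on the recovered reads was used instead. The enzymes had at least 269 reads in every library, while depth limits the values of their pseudogenes, several of which had under 10 reads.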

Other observations

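The methionine cycle and the polyamine pathway make the substrate of MTAP, and single genes of them were high in 1 line. MAT2A, which makes S-adenosylmethionine, was at 25.9 ± 5.69 FPKM (SD, n = 4) in BPH-1, 36.8 ± 3.62 in DU145 and 104 ± 14.3 in PC3 (log2 difference of PC3 from BPH-1 1.97, SE 0.17, adjusted p = 7.82e-06 by limma). ODC1, the entry enzyme of polyamine synthesis, was at 72.3 ± 18.3 FPKM in BPH-1, 111 ± 25.0 in DU145 and 443 ± 75.8 in PC3 (2.62, SE 0.20, adjusted p = 3.56e-06). Both also passed in DU145 against BPH-1 (0.51 and 0.62), calls that were lost under some scalings. Over the 8 genes of methylthioadenosine salvage and polyamines, PC3 had 3 higher, 3 lower and 2 not past the test against BPH-1, and DU145 had 2, 4 and 2. With the GC trend divided out these were 5 higher and 1 lower in PC3 (median log2 difference 0.49 in place of -0.036) and 2 and 2 in DU145 (0.32 in place of -0.32). CBS, which leads homocysteine into transsulfuration with serine, was chosen after its values were seen and was at 2.52 FPKM in BPH-1, 40.9 in DU145 and 2.45 in PC3 (log2 difference of DU145 from BPH-1 3.56, SE 0.19, adjusted p = 5.15e-07). Of 7 genes of the methionine list tested in PC3 against BPH-1, 1 was higher and 1 lower, and of 8 tested in DU145, 2 were higher and 1 lower. With the GC trend divided out, 3 were higher and 0 lower in PC3 and 4 higher and 0 lower in DU145. As deposited, 27.1% of all genes were higher and 40.4% lower in PC3 than in BPH-1, and 30.3% and 32.4% in DU145.

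Of the 4 genes of the glycine cleavage system, each PCa line had 1 higher, 2 lower and 1 not past the test against BPH-1, and none of the 4 passed between PC3 and DU145 by limma. With the GC trend divided out the lower calls were lost, with 2 higher and 0 lower in PC3 and 1 and 0 in DU145. As deposited, 27.1% of all genes were higher and 40.4% lower in PC3 than in BPH-1, and 30.3% and 32.4% in DU145. Between PC3 and DU145, 48.3% of all genes passed. GLDC, the glycine decarboxylase, was chosen after its values were seen and was low in all lines, at 0.0684 FPKM in BPH-1, 0.974 in DU145 and 0.724 in PC3.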
